A study of Mus musculus with 8 samples.

Results

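The lysosomal enzymes and membrane proteins are described here in isolated mouse hepatocytes with and without the cannabinoid receptor gene *Cnr1*. They are 43 genes, listed by function as acid hydrolases, their activators, proteins of the lysosomal membrane and 2 regulators, and taken from the 21368 genes that the array's non-control probes could be named for through their accessions. All 43 had a probe, and 39 of them were among the 11072 genes bright enough to be tested. Lysosomes are acidic organelles that take up material from endocytosis and autophagy and break down its proteins, sugars and lipids. Every cell has them, and in hepatocytes they clear lipid droplets and old organelles, whereas macrophages, including the Kupffer cells of the liver, hold additional proteases used in antigen processing. The transcription factor TFEB switches on many lysosomal genes together.

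Hepatocyte RNA was measured in 4 samples of hCNR1+/+ mice (genotype label hCNR1_WT, strain CNRO) and 4 of hCNR1-/- mice (genotype label hCNR1_cKO, strain CNRO Alb-Cre), male littermates 12 to 14 weeks old on a Standard diet, from a cross of CNR1flox/flox mice with mice carrying Cre. The albumin promoter drives this Cre, so the deletion is meant for hepatocytes, and since the strain label gives Alb-Cre to the hCNR1-/- mice alone, Cre and deletion cannot be told apart. Each sample had 1 single-colour Agilent array. A figure legend of the study gives fewer samples per genotype than are labelled, without saying which, and all labelled arrays were used. Position on the slide is confounded with genotype as well and cannot be told apart from it, because row 1 held the hCNR1+/+ arrays and row 2 the others. The *Cnr1* probe was well above background on 0 of the 8 arrays and does not check the labels. A level below is the log2 intensity of a probe minus the 75th percentile of its array, so that 0 is that percentile, and levels are compared between arrays and not between genes. The 75th percentile itself ran from 29.3 to 139 intensity units, lowest in hCNR1-/- replicate 4, and 28.6% to 42.3% of spots were well above background. The 20 hepatocyte markers were all bright enough to be tested, with 11 lower and 9 higher by sign and a median log2 fold change of -0.09. Past a fold of 2 with an unadjusted p below 0.05 were the apolipoprotein gene *Apob* (1.63, adjusted p = 0.048) and the urea cycle gene *Ass1* (-1.14, adjusted p = 0.080), both without overlap. That was 1 of 20 higher and 1 of 20 lower, against 4.78% and 3.75% of all tested genes past that threshold. Without overlap, 12.7% of all tested genes were higher and 5.04% lower.

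The question was whether lysosomal genes differed between the genotypes, and whether those typical of macrophages differed from those that all cells use. *Ctss*, the macrophage protease cathepsin S, was lower in the hCNR1-/- hepatocyte samples. *Lipa*, the acid lipase that splits cholesteryl esters and triglycerides, was higher. The call held in 15 of 21 alternatives for *Ctss* and in 7 of 22 for *Lipa*. No other of the 39 tested genes passed an adjusted p below 0.05 in limma. The 1 gene lower was 2.56% of those tested, against 1.3% of all tested genes, and the 1 gene higher was also 2.56%, against 2.94%. Past a fold change of 2, where the unadjusted p was also below 0.05, 2 genes were lower (*Ctss* and *Asah1*, 5.13% against 3.75% of all tested genes) and 1 was higher (*Lamp2*, 2.56% against 4.78%). At an unadjusted p below 0.05 alone, 5 were lower (12.8% against 6.92%) and 4 were higher (10.3% against 14.7%). The arrays of the genotypes did not overlap for 3 lower genes (7.69% against 5.04%) and 4 higher ones (10.3% against 12.7%). Each of these shares rests on 1 to 5 genes and no list test was run, so no departure from all genes is read from them.

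By sign alone, 25 of the 39 genes were lower and 14 higher in hCNR1-/- hepatocytes, and their median log2 fold change was -0.17, beside a median of 0.08 over all tested genes, of which 43.4% were lower. That majority by sign shrank or was lost without replicate 4 arrays. Without hCNR1-/- replicate 4 alone, 20 were lower and the median was -0.01, beside 0.17 over all genes. Without hCNR1+/+ replicate 4 alone, 21 were lower and the median was -0.06, beside 0.11. Without both replicate 4 arrays, an alternative chosen after seeing the data, 16 were lower and the median was 0.12, beside 0.20 over all genes. Array weights, which gave hCNR1-/- replicate 4 a weight of 0.0994, left 18 lower with a median of 0.056, beside 0.18 over all genes. The lysosomal median minus that of all genes was -0.25 with all arrays. It shrank but stayed negative, at -0.19 without hCNR1-/- replicate 4 and -0.17 without hCNR1+/+ replicate 4. With array weights it was -0.13, and without both replicate 4 arrays -0.08. The lysosomal median had an SD of 0.16 between arrays of a genotype. These fits share arrays, so their common sign is not separate support.

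**Figure D1:**
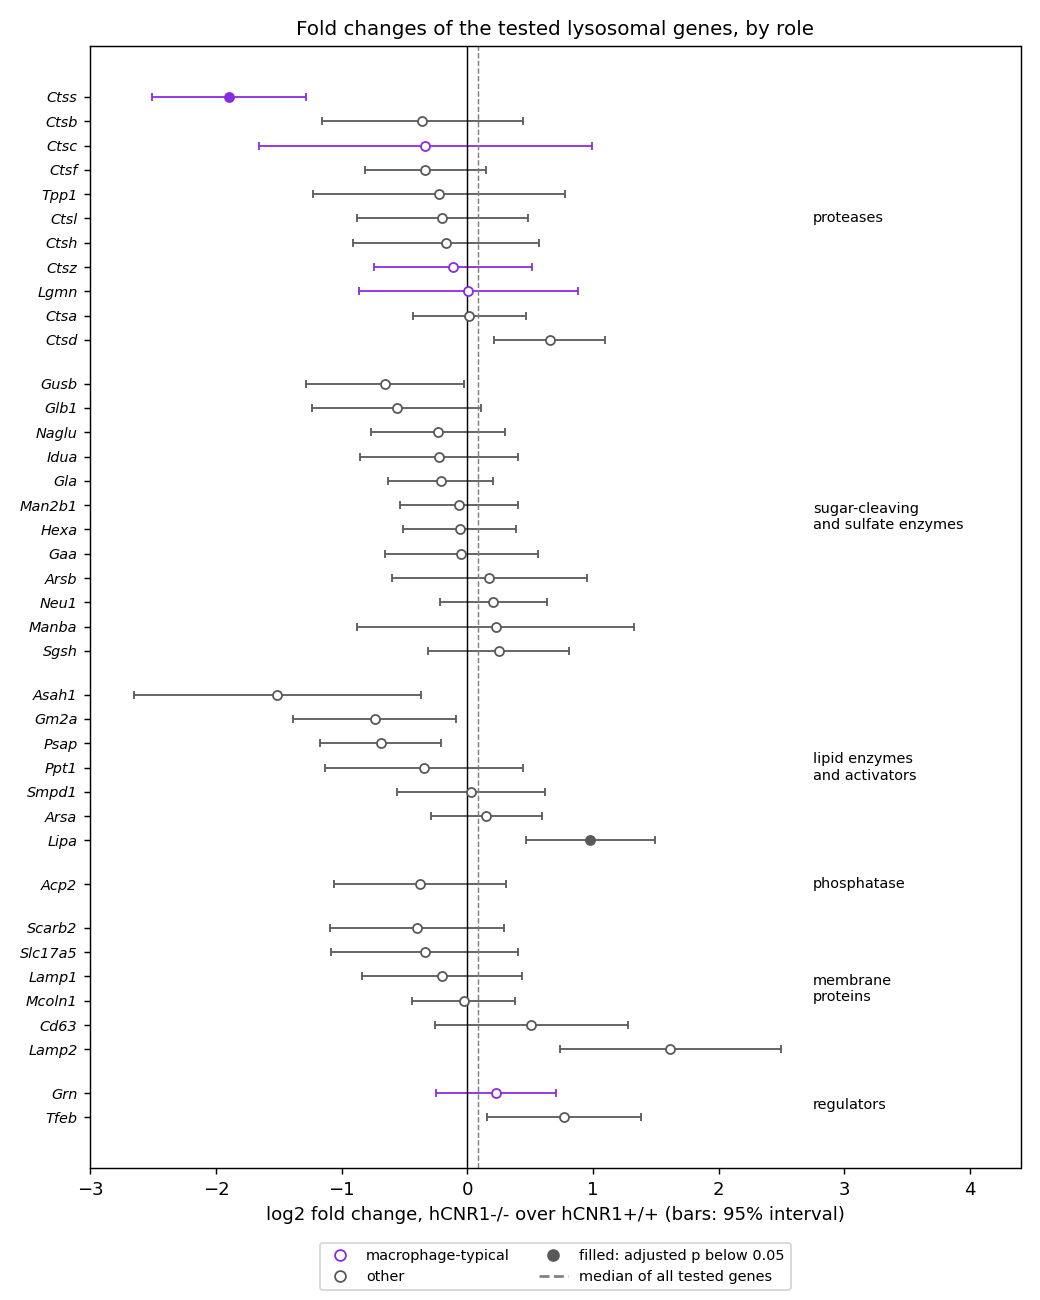
Log2 fold changes of the 39 tested lysosomal genes, hCNR1-/- over hCNR1+/+, ordered by role and then by size, with 95% intervals from limma (horizontal axis, log2 units). *Ctss* at -1.89 and *Lipa* at 0.98 are the filled points (adjusted p below 0.05), and the dashed line is the median of all tested genes at 0.08.

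*Ctss* had levels of -0.41, -0.13, -0.04 and 0.28 on the hCNR1+/+ arrays and of -2.13, -2.35, -2.10 and -1.29 on the hCNR1-/- arrays, in the order of replicates 1 to 4. Every hCNR1-/- array lay below every hCNR1+/+ array. The log2 fold change was -1.89 ± 0.27 (SE, 95% interval -2.51 to -1.28, n = 4 per genotype, limma adjusted p = 0.012). The exact two-sided permutation test over the 70 assignments of arrays gave p = 0.0286, the smallest it can give. The single *Ctss* probe was dim: all 4 hCNR1+/+ arrays had it well above background, but only replicates 1 and 3 of hCNR1-/- did. A background correction with an offset of 50 intensity units moved the log2 fold change to -0.60 (adjusted p = 0.325). The adjusted p was also 0.057 without hCNR1+/+ replicate 3 and 0.051 without hCNR1-/- replicate 3, within a range of 0.000186 to 0.325 over 21 alternatives, all of which kept the sign.

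The promoter of *Ctss* is shown because PU.1, the factor that macrophages use to switch on many of their genes, recognises a core of GAGGAA. The 250 bases before its start, from RefSeq on GRCm38.p6 at chr3:95526536-95526785 on the plus strand, hold 1 copy of GAGGAA, in capitals.
Ctss: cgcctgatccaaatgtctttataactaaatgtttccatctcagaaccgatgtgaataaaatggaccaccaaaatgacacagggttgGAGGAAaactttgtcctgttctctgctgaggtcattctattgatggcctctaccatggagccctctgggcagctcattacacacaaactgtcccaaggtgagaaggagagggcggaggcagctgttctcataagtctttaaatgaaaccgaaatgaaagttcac
The copy begins 164 bases before the start, and another on either strand begins at the start itself. GAGGAA on either strand occurred in promoter windows (250 bases before to 50 after a start) of 17 of 39 lysosomal genes with such a window (43.6%) and of 31.3% of all 27025 genes in the table, so the match is common.

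Kupffer cell markers were read beside *Ctss*. Of 20 such markers 14 were tested, and all 14 had a negative log2 fold change with a median of -0.75 (-1.30 with no scaling). Under quantile normalization or without hCNR1-/- replicate 1, 2 or 3, 13 were negative, and 12 were without hCNR1+/+ replicate 4. With no filter on dim probes, 16 of the 20 were negative. In the main fit 6 of the 14 were lower at an unadjusted p below 0.05 (42.9%, against 6.92% of all tested genes). The scavenger receptor *Marco* alone passed the adjusted threshold (-2.41 ± 0.49, SE, adjusted p = 0.034). Their mean level ran from 0.73 to 2.06 on the hCNR1+/+ arrays and from -0.07 to 0.66 on the hCNR1-/- arrays, without overlap. The Kupffer cell receptors *Clec4f* (-1.33, adjusted p = 0.090) and *Vsig4* (-1.77, adjusted p = 0.052, no overlap) were well above background on all 4 hCNR1+/+ arrays and on 3 and 2 hCNR1-/- arrays. Other defining markers were at or near background: *Timd4*, *Cd163*, *Mrc1* and *Ptprc* were well above it on 0 arrays, *Lyz2* on 1 and *Adgre1* on 3. In whole RNA, fewer cells of a type and less RNA per cell cannot be told apart, and the part of the markers in the *Ctss* result was not tested. *Ctss* minus the marker mean of the same array, a difference in which the scaling cancels, was -1.14, -1.49, -1.14 and -1.78 on the hCNR1+/+ arrays and -2.46, -2.29, -2.77 and -1.92 on the hCNR1-/- arrays. All 4 hCNR1-/- arrays were lower in this difference, with *Ctss* not well above background on replicates 2 and 4. *Ctss* minus the median of the 34 tested genes that are not macrophage-typical ran from -4.37 to -4.00 in hCNR1+/+ and from -6.20 to -5.63 in hCNR1-/-, with the same limit on replicates 2 and 4.

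**Figure D2:**
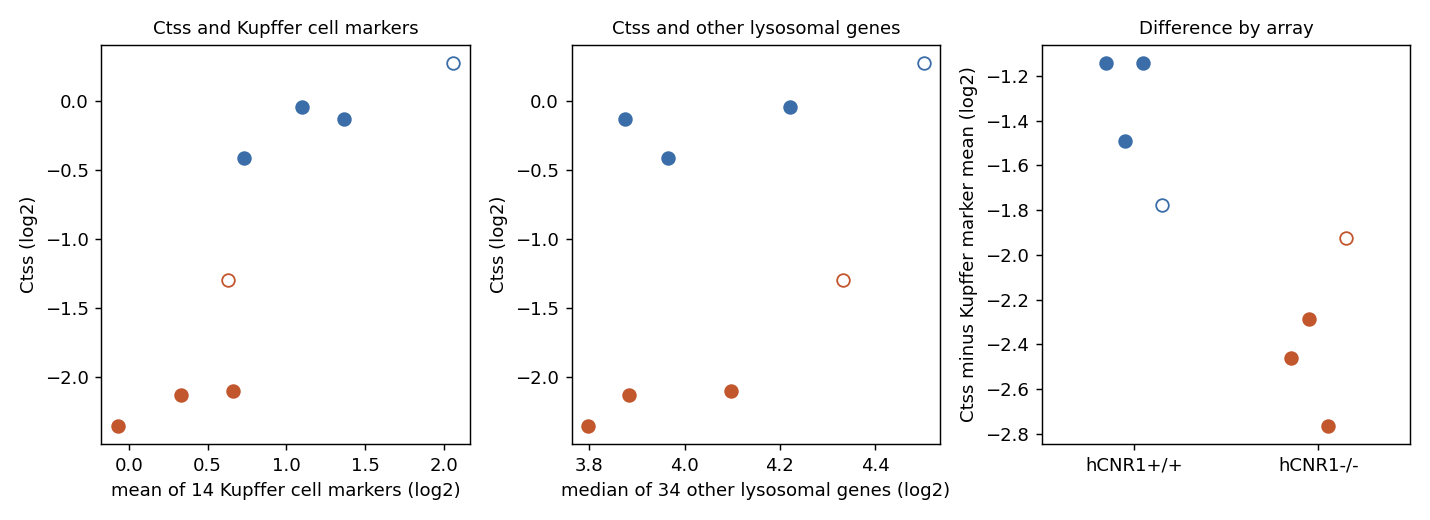
*Ctss* on each array (log2 level) against the mean of 14 Kupffer cell markers (left) and against the median of 34 other lysosomal genes (middle), and *Ctss* minus the marker mean by genotype (right, log2). Points are arrays, blue for hCNR1+/+ and orange for hCNR1-/-, with replicate 4 open; the hCNR1-/- arrays lie lower on *Ctss* in all 3 panels.

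The other macrophage-typical genes did not pass the test. *Ctsc*, which activates the serine proteases of immune cells, had levels of 1.96, 1.03, 1.65 and 2.28 in hCNR1+/+ and of 2.05, 2.27, 1.82 and -0.57 in hCNR1-/-. hCNR1-/- replicate 4 was the only array far from the rest, and the log2 fold change of -0.34 (95% interval -1.66 to 0.99) became 0.32 without it. *Ctsz*, the carboxypeptidase cathepsin Z, had levels of 7.09, 7.21, 7.08 and 7.29 in hCNR1+/+ and of 7.64, 7.17, 7.13 and 6.30 in hCNR1-/-. The genotypes overlapped, and its -0.11 (-0.74 to 0.52) also became 0.14 without hCNR1-/- replicate 4. *Lgmn*, the asparagine-specific protease legumain, had levels of 6.25, 6.78, 6.95 and 7.82 in hCNR1+/+ and of 6.61, 7.51, 7.41 and 6.32 in hCNR1-/-. Its spread covered the same range in both genotypes, at 0.01 (-0.86 to 0.88), and the sign turned under 10 of 22 alternatives. *Grn*, which encodes the secreted and lysosomal protein progranulin, had levels of 6.60, 6.12, 6.59 and 6.67 in hCNR1+/+ and of 6.77, 6.75, 6.43 and 6.93 in hCNR1-/-. They overlapped at 0.23 (-0.25 to 0.71), and quantile normalization and no scaling turned the sign. *Ctsk*, known from bone-resorbing osteoclasts, was well above background on 1 array and was not tested.

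Set against each other, the 5 tested macrophage-typical genes had a median log2 fold change of -0.11 and the 34 others one of -0.19. The difference of 0.07 was smaller than its SD of 0.35 between arrays of a genotype, and it ran from -0.16 to 0.20 over 22 alternatives. Among these 5 genes *Ctss* alone was lower at the adjusted threshold. The label macrophage-typical was set by a list, and which cells the RNA of these genes came from was not measured. The intervals above still allow changes of the other 4 in either direction.

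**Figure D3:**
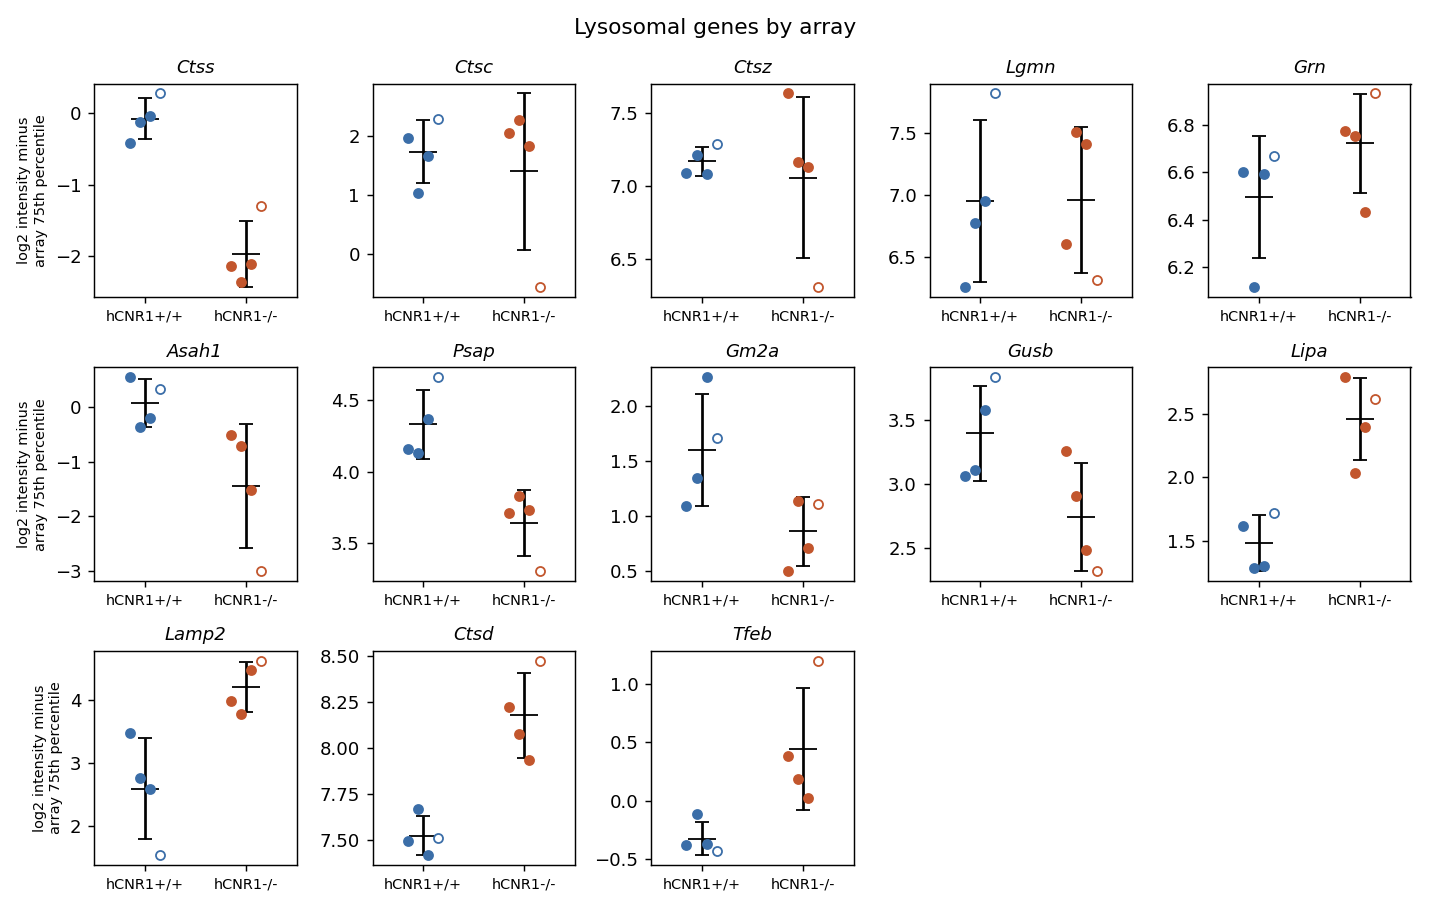
Levels of 13 lysosomal genes (log2 intensity minus the 75th percentile of the array) on the 4 hCNR1+/+ (blue) and 4 hCNR1-/- (orange) arrays, with mean and SD in black and replicate 4 as open circles. The top row holds the 5 tested macrophage-typical genes, of which only *Ctss* separates the genotypes. By the brightest probe, *Lipa*, *Lamp2*, *Ctsd* and *Tfeb* lie higher on every hCNR1-/- array. The other probes of *Lamp2* and *Ctsd*, not drawn here, gave log2 fold changes of -0.99 and 0.01.

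Of the proteases, 11 of 14 were tested, 8 of them with a negative log2 fold change, and *Ctss* was the only one past the adjusted threshold. *Ctsd*, the aspartic protease cathepsin D, had levels of 7.50, 7.67, 7.42 and 7.51 in hCNR1+/+ and of 8.23, 8.08, 7.94 and 8.48 in hCNR1-/-. Every hCNR1-/- array was higher, with a log2 fold change of 0.65 ± 0.20 (SE) that missed the threshold (limma adjusted p = 0.093). A dimmer *Ctsd* probe gave 0.01. The cysteine cathepsins *Ctsb* (-0.36), *Ctsh* (-0.17), *Ctsl* (-0.20) and *Ctsf* (-0.33), the carboxypeptidase *Ctsa* (0.02) and the tripeptidyl peptidase *Tpp1* (-0.22) did not pass either. *Ctse* was well above background on 1 array and *Ctso* on 0.

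The enzymes that act on lipids, with the activator proteins that hand lipids to them, had log2 fold changes from -1.51 to 0.98. *Lipa* had levels of 1.62, 1.28, 1.30 and 1.72 in hCNR1+/+ and of 2.79, 2.03, 2.40 and 2.61 in hCNR1-/-. All 4 hCNR1-/- arrays were higher, by 0.98 ± 0.23 on the log2 scale (SE, 95% interval 0.46 to 1.49, a fold of 1.97, limma adjusted p = 0.048). The sign was the same in 22 alternatives, but the adjusted p passed in 7 of them and ran from 0.0057 to 0.863; leaving out any array other than hCNR1-/- replicate 4 ended the call, with values from 0.87 to 1.12 over all 8 arrays left out. *Asah1*, the acid ceramidase, had levels of 0.54, -0.37, -0.21 and 0.32 in hCNR1+/+ and of -0.51, -0.72, -1.52 and -3.01 in hCNR1-/-. The genotypes did not overlap, but replicate 4 carried much of the log2 fold change of -1.51 ± 0.51 (SE, adjusted p = 0.125), which was -0.99 without it. A second, dimmer *Asah1* probe gave -0.68. *Psap*, the precursor of the saposins that assist sphingolipid breakdown, had levels of 4.16, 4.13, 4.37 and 4.66 in hCNR1+/+ and of 3.71, 3.83, 3.73 and 3.30 in hCNR1-/-. All hCNR1-/- arrays were lower, at -0.69 ± 0.22 (SE, adjusted p = 0.103). *Gm2a*, an activator of ganglioside breakdown, had levels of 1.09, 1.34, 2.26 and 1.71 in hCNR1+/+ and of 0.50, 1.13, 0.70 and 1.11 in hCNR1-/-. The ranges overlapped slightly, and the value of -0.74 ± 0.29 (SE) did not pass (adjusted p = 0.179). The palmitoyl thioesterase *Ppt1* (-0.34), the acid sphingomyelinase *Smpd1* (0.03) and the sulfatide sulfatase *Arsa* (0.15) were within their errors of 0.

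Of the 13 enzymes that cleave sugars or sulfate groups from sugars, 12 were tested. The log2 fold change was negative for 8 and positive for 4, and 0 passed the adjusted threshold in limma. An unadjusted p below 0.05 was reached by 1 lower gene (8.33%, against 6.92% of all tested genes). That was *Gusb*, beta-glucuronidase, with levels of 3.06, 3.11, 3.58 and 3.84 in hCNR1+/+ and of 3.26, 2.91, 2.48 and 2.31 in hCNR1-/-. hCNR1-/- replicate 1 lay inside the hCNR1+/+ range, and the log2 fold change was -0.66 ± 0.28 (SE, adjusted p = 0.215). The remaining ones were the beta-galactosidase *Glb1* (-0.56), the heparan sulfate enzymes *Naglu* (-0.23) and *Sgsh* (0.25), the iduronidase *Idua* (-0.22), the alpha-galactosidase *Gla* (-0.21), the mannosidases *Man2b1* (-0.07) and *Manba* (0.23), the hexosaminidase subunit *Hexa* (-0.06), the glycogen-splitting *Gaa* (-0.05), the sulfatase *Arsb* (0.18) and the sialidase *Neu1* (0.21). Dimmer probes of *Gaa* (-0.61) and *Sgsh* (-0.78) were lower on every hCNR1-/- array, with limma adjusted p of 0.105 and 0.087 as probes on their own. A dimmer *Idua* probe gave -0.24, with overlap. *Ids*, the iduronate sulfatase, was well above background on 1 array and was not tested. *Acp2*, the lysosomal acid phosphatase, had levels of -0.17, -0.65, -0.73 and -0.04 in hCNR1+/+ and of -0.17, -0.54, -0.97 and -1.42 in hCNR1-/-. They overlapped at -0.38 (95% interval -1.06 to 0.30), and a second *Acp2* probe gave 0.12.

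All 6 membrane proteins were tested. *Lamp2*, an abundant glycoprotein of the lysosomal membrane whose transcript is spliced to alternative last exons, had levels of 3.48, 2.76, 2.58 and 1.54 in hCNR1+/+ and of 3.98, 3.77, 4.46 and 4.61 in hCNR1-/-. Every hCNR1-/- array was higher, with a log2 fold change of 1.61 ± 0.39 (SE, 95% interval 0.73 to 2.49) that just missed the adjusted threshold (limma adjusted p = 0.052, from 0.0090 to 0.817 over 23 alternatives). The scavenger receptor relative *Scarb2* (-0.40), the sialic acid exporter *Slc17a5* (-0.34), the membrane glycoprotein *Lamp1* (-0.20), the calcium channel *Mcoln1* (-0.03) and the tetraspanin *Cd63* (0.51) did not pass.

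For *Lamp2* this was 1 of 2 probes, filed under different RefSeq transcripts, and the other one moved the other way. The probe used was the brighter over all 8 arrays, whereas on the hCNR1+/+ arrays alone the other had the higher mean (2.72 against 2.59). The other probe had levels of 2.85, 2.70, 2.72 and 2.63 in hCNR1+/+ and of 2.09, 1.54, 2.13 and 1.17 in hCNR1-/-, so that every hCNR1-/- array was lower. With each probe tested on its own over all 19985 probes that passed the filter, the log2 fold changes were 1.61 (adjusted p = 0.038) and -0.99 ± 0.26 (SE, adjusted p = 0.045). Of the 48 probes of lysosomal genes in that fit, 2 were lower (4.17%, against 3.46% of all probes) and 3 were higher (6.25%, against 4.45%) at an adjusted p below 0.05. The mean of the 2 *Lamp2* probes gave 0.31.

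The difference between the brightest and the next probe was then fitted for all 2487 genes with at least 2 passing probes, a comparison added after these values had been seen. Of these genes 5.03% passed an adjusted p below 0.05, and of the 9 lysosomal genes among them *Lamp2* and *Slc17a5* did. For *Lamp2* the difference was 0.63, 0.06, -0.13 and -1.08 on the hCNR1+/+ arrays and 1.89, 2.23, 2.33 and 3.44 on the hCNR1-/- arrays. The genotypes differed by 2.61 ± 0.44 (SE, 95% interval 1.58 to 3.63, adjusted p = 0.022), 6.09-fold, and array scaling cancels in this value. It was above 0.05 without hCNR1+/+ replicates 2 or 3 and without hCNR1-/- replicates 2 or 3 (adjusted p up to 0.075), at differences of 2.61 to 2.69. The *Slc17a5* probes are filed under the same transcript. The brighter one had levels of 2.93, 2.92, 2.85 and 2.86 in hCNR1+/+ and of 2.23, 2.20, 2.13 and 3.63 in hCNR1-/-, with replicate 4 alone on the high side. The dimmer one had levels of -0.66, -0.58, -0.32 and -0.62 in hCNR1+/+ and of 0.61, 0.07, 0.50 and 0.74 in hCNR1-/-, all higher (1.03 ± 0.22, SE, adjusted p = 0.022 as a probe on its own). The difference between them was -1.37 ± 0.29 (SE, adjusted p = 0.043), and leaving out any array other than hCNR1-/- replicate 4 ended that call, with adjusted p up to 0.121. *Sgsh* (1.03, adjusted p = 0.073) and *Ctsd* (0.65, adjusted p = 0.144) had differences without overlap that did not pass. The probes of these 4 genes disagreed on the size or direction, and the probe sequences were not used here.

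**Figure D4:**
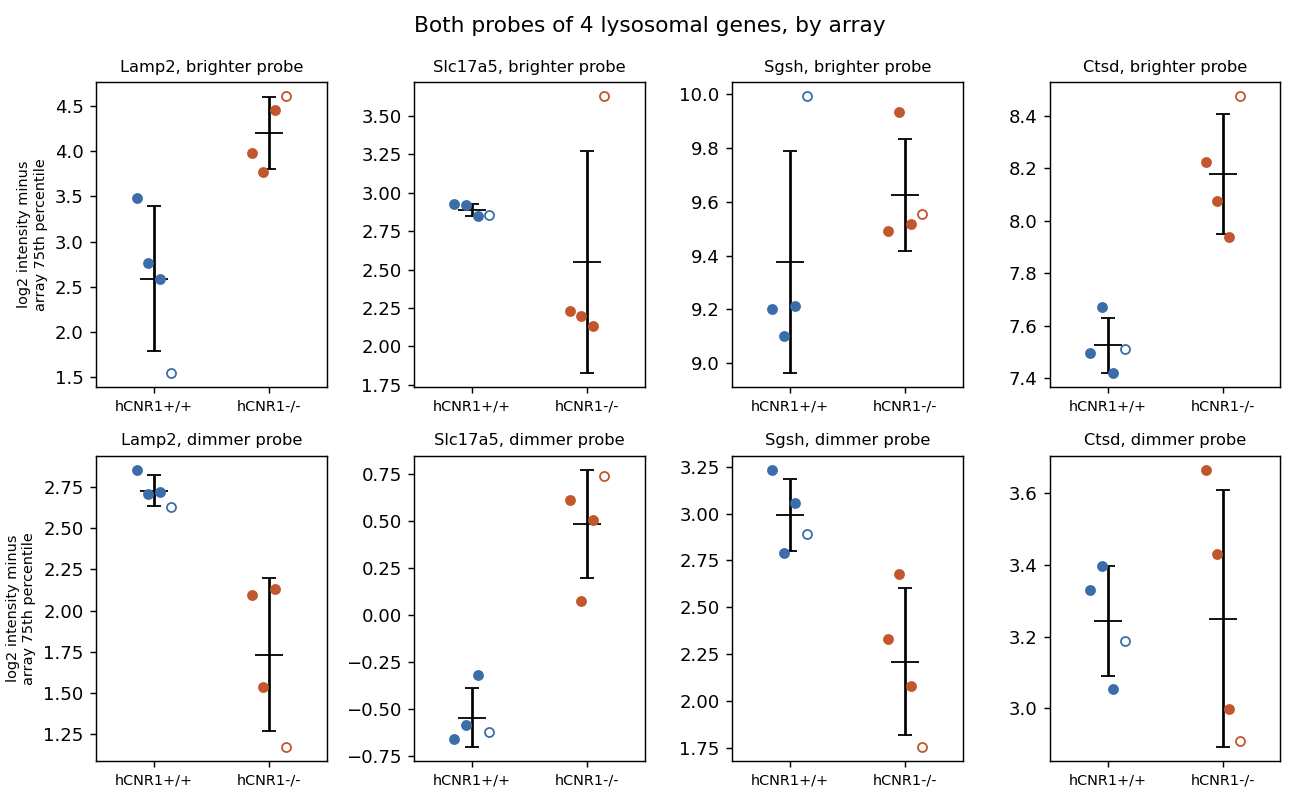
Levels (log2 intensity minus the 75th percentile of the array) of the probe that was brighter (top) and dimmer (bottom) over all 8 arrays of *Lamp2*, *Slc17a5*, *Sgsh* and *Ctsd* on hCNR1+/+ (blue) and hCNR1-/- (orange) arrays, with mean and SD in black and replicate 4 open. The *Lamp2* probes separate the genotypes in opposite directions, 1.61 and -0.99 on the log2 scale.

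*Tfeb*, the regulator of lysosomal genes, had levels of -0.38, -0.12, -0.37 and -0.43 in hCNR1+/+ and of 0.38, 0.19, 0.02 and 1.20 in hCNR1-/-. All hCNR1-/- arrays were higher, with replicate 4 the highest. The log2 fold change was 0.77 ± 0.27 (SE, 95% interval 0.16 to 1.38), the adjusted p was 0.141, and without hCNR1-/- replicate 4 the value was 0.52. Its relatives *Mitf* (0.49, adjusted p = 0.438) and *Tfe3* (-0.05, adjusted p = 0.910) did not pass, and *Tfec* was well above background on 0 arrays.

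TFEB binds the palindrome CACGTG, best when it stands in the longer TCACGTGA. Promoter windows from RefSeq (GRCm38.p6) were found for 39 of the 43 genes, the missing ones being *Asah1*, *Ctsb*, *Ctse* and *Ctsh*. CACGTG occurred in 13 of the 39 (33.3%), against 8.09% of all genes in the table and 7.15% of all windows of that length. TCACGTGA, which contains it, occurred in 4 of the 39 (10.3%), against 1.12% of all genes. The stretches around these copies are shown, with CACGTG in capitals, for the 4 genes with the longer form, *Ctsa* (chr2:164833733-164833792, plus strand), *Ctsd* (chr7:142387898-142387957, minus strand), *Mcoln1* (chr8:3500429-3500488, plus strand) and *Gla* (chrX:134601176-134601255, minus strand), and for *Lamp1* (chr8:13159081-13159160, plus strand), which holds 4 copies of the short one.
Ctsa: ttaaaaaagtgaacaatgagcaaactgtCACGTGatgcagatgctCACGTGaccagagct
Ctsd: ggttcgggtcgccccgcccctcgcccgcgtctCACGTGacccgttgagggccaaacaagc
Mcoln1: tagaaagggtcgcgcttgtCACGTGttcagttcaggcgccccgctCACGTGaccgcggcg
Gla: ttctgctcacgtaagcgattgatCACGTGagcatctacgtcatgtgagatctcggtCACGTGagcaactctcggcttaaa
Lamp1: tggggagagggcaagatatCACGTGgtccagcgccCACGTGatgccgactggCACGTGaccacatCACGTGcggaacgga
Of the 5 genes shown, only *Ctsd* had arrays that did not overlap between genotypes. The 13 tested genes with CACGTG had a median log2 fold change of -0.05 and the 23 tested genes whose windows lack it one of -0.11. *Ctss*, *Lipa*, *Lamp2*, *Psap* and *Tfeb* itself, whose arrays also separated the genotypes, have no CACGTG in their windows, which says nothing about sites elsewhere.

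The rest of the lysosome was read from 79 further genes, 73 of them tested. Of these 1, a lower one, passed the adjusted threshold. Over all tested genes 1.3% passed it as lower and 2.94% as higher. That gene was *Slc38a9*, the amino acid transporter through which lysosomal arginine is sensed, with levels of -0.45, -0.81, -1.30 and -1.50 in hCNR1+/+ and of -2.03, -2.27, -3.36 and -2.83 in hCNR1-/-. Every hCNR1-/- array was lower, at -1.60 ± 0.35 (SE, adjusted p = 0.038), but in hCNR1-/- only 1 of 4 arrays had the probe well above background. With normexp the value was -0.36, and the call held in 7 of 21 alternatives (adjusted p from 0.0082 to 0.536). Of the 17 subunits of the proton pump that acidifies the lysosome, all tested, 6 were lower and 11 higher by sign, 0 passed the adjusted threshold in limma, and 1 lower and 3 higher had an unadjusted p below 0.05 (5.88% and 17.6%, against 6.92% and 14.7% of all tested genes). The lower one was *Atp6v1h* (-1.23 ± 0.43, SE, adjusted p = 0.137), at -0.79 without hCNR1-/- replicate 4. The 3 higher ones did not overlap between genotypes, beside 12.7% of all tested genes that were higher without overlap. Among them *Atp6v1f* had the smallest p (0.84 ± 0.24, SE, limma adjusted p = 0.082). Of 22 tested further hydrolases, 14 were lower and 8 higher by sign, and 0 passed the adjusted threshold in limma. At an unadjusted p below 0.05, 2 were lower and 3 higher (9.09% and 13.6%, against 6.92% and 14.7% of all tested genes). Both lower ones were past a fold of 2 (9.09%, against 3.75% of all tested genes), among them the acid nuclease *Dnase2a* (-1.09, limma adjusted p = 0.052). The 3 higher ones were *Galns* (0.98), *Prcp* (0.83) and *Hyal2* (0.60), without overlap (13.6%, against 12.7% of all tested genes). Of 20 tested further membrane proteins 11 were lower by sign (55.0%, against 43.4% of all tested genes). Of 12 tested genes of sorting to the lysosome 8 were higher by sign and 0 passed in limma. There 1 higher gene had an unadjusted p below 0.05 (8.33%, against 14.7% of all tested genes). That was the mannose 6-phosphate receptor *M6pr* (0.80, adjusted p = 0.060).

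The spread between arrays bounds all of these values. The median SE of a log2 fold change over the 39 genes was 0.28, and the median 95% interval reached 0.63 to either side. hCNR1-/- replicate 4, the dimmest array, was the lowest of the 8 arrays for 16 of the 39 genes (41.0%), beside 38.9% of all tested genes, and the highest for 9 (23.1%), beside 21.3%. It lay more than 1 log2 unit below the hCNR1+/+ mean for 14 of them, among them *Ctsb*, *Ctsc*, *Ctsh*, *Ctsl* and *Scarb2*, whereas the other hCNR1-/- arrays did so for 1 or 2. Without it, 2 of the 39 genes were lower (*Ctss* and *Slc17a5*) and 3 higher (*Lipa*, *Ctsd* and *Cd63*) at an adjusted p below 0.05 in limma. Over all 11072 tested genes, 323 were then lower and 1121 higher, against 144 and 325 with all arrays. *Ctss* stood at -2.12 in that fit (limma adjusted p = 0.0026).

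**Figure D5:**
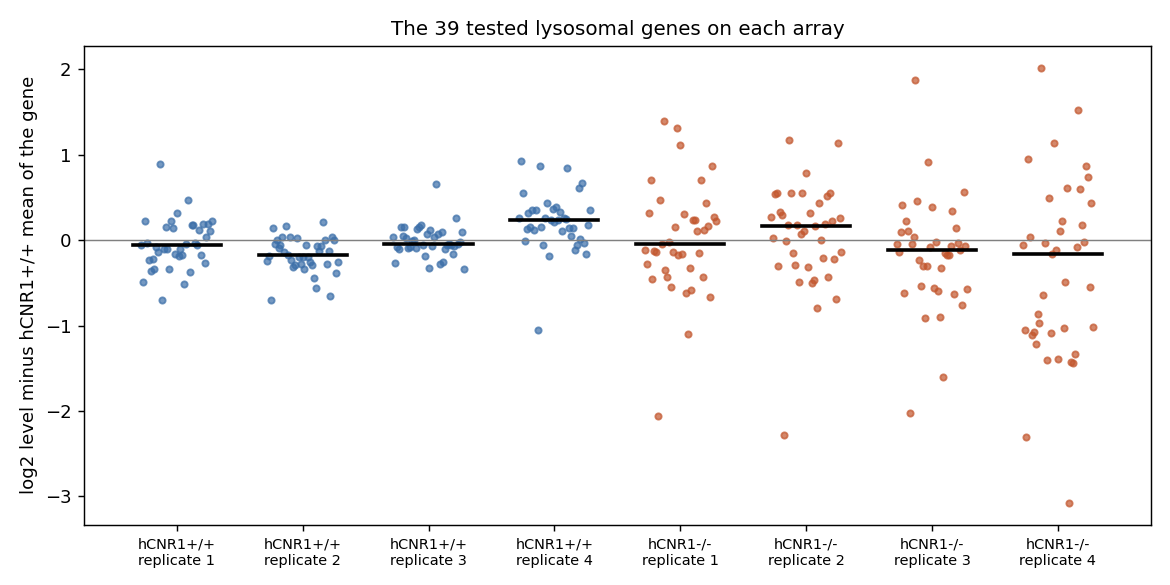
Levels of the 39 tested lysosomal genes on each array relative to the hCNR1+/+ mean of each gene (vertical axis, log2), 1 point per gene with the median as a black bar. The hCNR1+/+ arrays enter that mean and so lie close to 0 by construction; hCNR1-/- replicate 4 has 14 genes more than 1 log2 unit below it.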

How the data were processed

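RNA of isolated hepatocytes (200 ng per array) was labelled with Cy3. The authors deposited spot intensity values from Agilent Feature Extraction, background-corrected within each array and not scaled between arrays, and a score per spot that lay within 0.005 of the z-score of log intensity within its array. The values were taken to log2 and each array's 75th percentile over 59305 non-control spots was subtracted. Outlier spots were dropped and spots of a probe averaged. Probes were named through accessions by RefSeq (GRCm38.p6; 28331 of 55681 probes), and a gene was tested by its brightest probe well above background (flag on at least 50% of its spots) on at least 4 arrays. Tests were two-sided with lmFit and eBayes (limma 3.58.1, R 4.3.3) and Benjamini-Hochberg adjustment over 11072 genes. The fit was run on simulated data with independent normal values. Those hold no shift shared by the genes of an array, so that run does not cover arrays like hCNR1-/- replicate 4. The labels number the samples and do not say how mice map to them, so p-values measure the spread between these samples, and the number of arrays limits precision. The methods name no array scaling or test. The alternatives were other scalings, the deposited scores, normexp, other filters, probe choices and variance models, array weights, a replicate block and arrays left out.

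The genes and lists were chosen with earlier results of these data known. Named with every array's value are tested macrophage-typical genes, genes with an adjusted or unadjusted p below 0.05 or no overlap, *Tfeb*, and the best gene of a role without any. From the other lysosomal lists, genes past a threshold are named, except for an item that is not reported here, and *Atp6v1f*, *Galns*, *Prcp*, *Hyal2*, *Clec4f*, *Vsig4*, *Apob*, *Ass1*, *M6pr*, *Mitf*, *Tfe3*, *Slc17a5*, *Sgsh* and the probe pairs were added after their values were seen. Cell type lists other than Kupffer cells and hepatocytes (endothelial, stellate, lymphocyte, neutrophil, cholangiocyte) had 8, 1, 2, 2 and 2 tested genes, with 0 at an adjusted p below 0.05 in limma and 1, 0, 1, 2 and 0 at an unadjusted one. The endothelial one was *Pecam1*, lower (-0.69), and the lymphocyte one *Cd3e*, higher (0.90). The neutrophil ones were *Csf3r*, lower (-0.80), and *Elane*, higher (0.70). At that threshold 6.92% of all tested genes were lower and 14.7% higher, and with so few tested genes no departure from this is read. These genes and the dimmer probes of *Gaa*, *Sgsh* and *Idua* were also added after their values were seen.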

Additional observations from a re-analysis of the deposited data

Results flagged for a closer look

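In groups of 4 arrays, the gap of the highest or lowest array to its neighbour was divided by the range of the group, and values above Dixon's critical value for that size are given here. Of 84 groups (39 lysosomal genes, their median, and the Kupffer and hepatocyte marker means, in both genotypes) 8 passed, or 9.52%, beside 10.8% over all tested genes, and chance gives about 1 in 20. In hCNR1-/- replicate 4, *Ctsc* was low (0.841 of the range), and *Idua* (0.838) and *Slc17a5* (0.936) were high, the last at 3.63 with the nearest array at 2.23. In hCNR1+/+ replicate 4, *Lamp1* (0.866), *Neu1* (0.857) and *Sgsh* (0.874) were high. *Sgsh* was also high in hCNR1-/- replicate 2 (0.858), and *Grn* was low in hCNR1+/+ replicate 2 (0.862). None of these 7 genes had an adjusted p below 0.05 in limma with all arrays, or an unadjusted one, and the cause of these single arrays was not tested.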

How the results depend on the processing

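*Ctss* kept its sign in 21 alternatives and missed the adjusted threshold in 6: no scaling (-2.45, adjusted p = 0.081), normexp background correction (-0.60, 0.325), no filter on dim probes (-1.89, 0.078), the replicate block (-1.89, 0.068), and without hCNR1+/+ replicate 3 or hCNR1-/- replicate 3; the values with 1 array left out ran from -2.12 to -1.77. It was not tested where a probe had to be well above background on all 8 arrays. The count of lower genes at an adjusted p was 1. It became 0 with no scaling, normexp, no filter, the 8-array filter and the replicate block. It was 2 with the percentile over bright probes, 7 with array weights and 3 without both replicate 4 arrays. Leaving out 1 array gave 0 to 2. Over all 11072 tested genes, 144 were lower in the main fit, 646 with array weights and 480 without both replicate 4 arrays. The count of higher genes was 1. It became 0 with quantile normalization, median scaling, the bright-probe percentile, no scaling, deposited scores, normexp, no filter and the block. It was 2 with the 8-array filter, the filter on 1 genotype and the variance trend. Array weights gave 6, and leaving out both replicate 4 arrays gave 5. Leaving out 1 array gave 0 to 3. Over all tested genes, 325 were higher in the main fit, 2176 with array weights and 1701 without both replicate 4 arrays. At fold and p, 2 lower genes became 1 with median scaling, array weights and without both replicate 4 arrays, 0 with normexp and the 8-array filter, 3 with no scaling, and 1 to 2 with 1 array left out. The 1 higher gene became 0 with no scaling and the mean of probes, 2 with array weights and without both replicate 4 arrays, and 1 to 2 with 1 array left out. The count of further lysosomal genes at an adjusted p was 1 and became 0 with quantile normalization, median scaling, no scaling, deposited scores, normexp, no filter and the block, 2 with either other filter, 4 with the variance trend, 16 with array weights and 9 without both replicate 4 arrays; leaving out 1 array gave 0 to 7. The median log2 fold change of the lysosomal genes moved to -0.33 with the bright-probe percentile, -0.73 with no scaling (where all genes had -0.47), 0.056 with array weights and 0.12 without both replicate 4 arrays, and ran from -0.22 to -0.01 with 1 array left out; the genes lower by sign were 35 of 39 with no scaling, 31 with quantile normalization and 28 with median scaling. Macrophage-typical minus other genes stayed within 1 SD in all 22, from -0.16 to 0.20 with 1 array left out.

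Among genes named with values, signs turned for *Lgmn* (-0.25 quantile normalization, -0.037 median scaling, -0.15 bright-probe percentile, -0.55 no scaling, -0.052 deposited scores, -0.054 normexp, -0.22 to 0.30 with 1 array left out), *Grn* (-0.025 quantile normalization, -0.33 no scaling), *Ctsc* (0.39 array weights, 0.50 without both replicate 4 arrays, -0.63 to 0.32 with 1 array left out), *Ctsz* (0.15, 0.18, and -0.30 to 0.14 likewise), *Acp2* (0.12 with the 8-array filter and with its other probe) and *Lamp2* (-0.99 with its other probe). *Ctss*, *Ctsd*, *Gusb*, *Lipa*, *Psap*, *Gm2a*, *Asah1*, *Tfeb*, *Slc38a9*, *Atp6v1h* and *Dnase2a* kept their sign in every alternative run; other genes named were not run through them as single values, and the other probes of *Slc17a5* and *Sgsh* have the opposite sign. *Lipa* lost its call in 15 of 22 alternatives, and the cause was not tested. With the replicate number (equal to the column on the slide) as a block, 0 genes in all passed the adjusted threshold in limma. *Lipa* then had an adjusted p of 0.091, and the probe differences of *Lamp2* and *Slc17a5* had 0.120 and 0.101. The deviations of same-numbered arrays correlated at 0.21, -0.16, -0.05 and 0.02. Such correlations cannot show whether the numbers pair mice, and the labels do not say. Dim probes, *Ctss* and *Slc38a9* among them, are limited by background.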
